A study of Mus musculus with 5 samples.

Results

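Metalloproteinases of macrophages and the tissue inhibitors that block them were followed in cardiac macrophages of infarcted mice with and without curcumol. The set held 9 genes, taken by symbol from 21289 in the count table: the matrix metalloproteinases Mmp12, Mmp13, Mmp14 and Mmp19, the membrane proteases Adam8 and Adam17, and the inhibitors Timp1, Timp2 and Timp3. Mmp8 and Mmp9, which neutrophils carry in their granules, were not in the set. CD45+CD64+ cells were sorted from infarcted hearts, taken on day 7, of wild-type males of the C57BL/6JGpt strain, and their RNA was sequenced in bulk. In 3 samples the mice had received the plant sesquiterpene curcumol by gavage each day (30 mg/kg, 7 days), and the 2 untreated samples came from infarcted mice without it. No group of mice without infarction was analysed here. The labels give no age of the mice and do not say whether a sample was 1 heart or a pool, and p-values therefore reflect the spread among these 5 samples, which may be technical.

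Matrix metalloproteinases are zinc enzymes that cut collagens, elastin and other matrix proteins, and are made as inactive precursors whose propeptide must be removed. ADAM proteases sit in the cell membrane and release the outer parts of other membrane proteins, and TIMPs bind the active site of these enzymes and stop them. After an infarct, macrophages and fibroblasts use this system to clear damaged matrix and to shape the scar, and the balance of proteases and inhibitors is known to affect how the wall thins or dilates.

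The libraries held 39768705 to 41117439 counts with curcumol and 41663017 and 43315822 counts without it. Genes with a count numbered 17078 to 18501 in the curcumol libraries, against 12243 and 12915 in the untreated libraries. The macrophage list (Ptprc, Fcgr1, Adgre1, Csf1r, Cd68, Itgam, Mertk, Lyz2, Cd14) was present in every library, with summed levels of 29305 to 33121 CPM (the count scaled to its library's total) with curcumol and 32685 and 33973 CPM without. Lyz2 gave most of that sum, at 21973 to 24599 CPM with curcumol and 22770 and 24446 CPM without, and the others went both ways. Cd14 averaged 1618 CPM with curcumol and 3446 CPM without, and Cd68 averaged 2042 CPM with curcumol and 3160 CPM without, whereas Itgam averaged 308 CPM with curcumol and 106 CPM without, and Mertk 98.4 CPM with curcumol and 33.5 CPM without. None of the 9 was called in edgeR, where 0.207% of all tested genes were. At an unadjusted p under 0.05, 2 were higher and 2 lower, against 18.1% and 6.51% of all tested genes. DESeq2 called 2 higher and 2 lower, against 12.5% and 4.37% of its tested genes. Each log2 fold change sets curcumol against untreated samples and is given with its SE, from edgeR's quasi-likelihood test with TMM scaling. Its p is adjusted over all tested genes by Benjamini-Hochberg.

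The start regions of 4 of the genes are shown because their values are the ones that stand apart or side by side below: Timp3 and Timp2, whose curcumol libraries all lay above the untreated ones, and Mmp13 and Mmp12, neighbours in the metalloproteinase cluster of chromosome 9. Each run gives the 250 bases before the RefSeq start (GRCm38.p6, 5′ to 3′), and capitals mark the letters of the AP-1 site TGANTCA, where Fos and Jun proteins bind DNA.
Timp3, chr10:86300162-86300411, plus strand: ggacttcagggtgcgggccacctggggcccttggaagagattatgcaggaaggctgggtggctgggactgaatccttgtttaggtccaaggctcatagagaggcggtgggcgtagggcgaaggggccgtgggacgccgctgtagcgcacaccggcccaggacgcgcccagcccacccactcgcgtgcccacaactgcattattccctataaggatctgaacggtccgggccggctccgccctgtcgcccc
Timp2, chr11:118355412-118355661, minus strand: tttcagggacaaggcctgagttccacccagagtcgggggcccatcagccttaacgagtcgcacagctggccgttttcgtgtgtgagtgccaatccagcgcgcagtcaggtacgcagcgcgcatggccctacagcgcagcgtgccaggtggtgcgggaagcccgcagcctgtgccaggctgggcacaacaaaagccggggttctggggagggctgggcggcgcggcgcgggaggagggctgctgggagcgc
Mmp13, chr9:7272264-7272513, plus strand: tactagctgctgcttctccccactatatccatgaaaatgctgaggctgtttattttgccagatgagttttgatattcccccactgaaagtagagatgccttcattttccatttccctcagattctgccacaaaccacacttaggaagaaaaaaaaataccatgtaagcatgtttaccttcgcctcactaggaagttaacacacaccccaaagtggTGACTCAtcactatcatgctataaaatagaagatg
Mmp12, the downstream one of its 2 RefSeq starts, chr9:7347124-7347373, plus strand: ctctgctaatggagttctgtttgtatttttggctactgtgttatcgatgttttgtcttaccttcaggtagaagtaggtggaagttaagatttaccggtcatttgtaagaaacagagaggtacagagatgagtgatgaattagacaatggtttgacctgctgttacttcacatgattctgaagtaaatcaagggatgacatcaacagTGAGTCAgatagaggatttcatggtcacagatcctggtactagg
The letters stood 35 bases before the start in Mmp13 and 44 bases before this start of Mmp12, and the window of its upstream start did not hold them. They were found, on both strands, in 6.75% of 32851 mouse windows of this length, and in windows of 2 of the 8 set members that had an entry, so not in those of Mmp14, Adam8, Adam17, Timp1, Timp2 or Timp3. Mmp19 had no entry. AGGAAG, the PEA3 site of Ets factors that often lies near AP-1 in metalloproteinase promoters, was found in windows of 6 of the 8 members and in 29.5% of all windows. GC content was 65.6% and 68.0% in the Timp3 and Timp2 windows, against 40.4% and 39.6% in those of Mmp13 and Mmp12.

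Of the 9 genes 0 were below the adjusted p threshold of 0.05 in edgeR, where 0.207% of 14508 tested genes were (0.0689% higher and 0.138% lower). In these bulk samples fewer cells of a type and less RNA per cell cannot be told apart. Timp3 was closest, at 4.36 to 16.8 CPM in curcumol libraries and at or under 0.0480 CPM in untreated ones, followed by Adam8 and Timp2 whose curcumol means stood at 0.807-fold and 1.44-fold of the untreated means. At an unadjusted p under 0.05 there were 2 of the 9, Timp3 higher and Adam8 lower, against 24.6% of all tested genes (18.1% higher and 6.51% lower). DESeq2 called 1 of the 9, Timp3, against 16.8% of its tested genes (12.5% higher and 4.37% lower), and limma-voom called the same gene, against 11.4%. None of the 9 was called with RLE factors (0.207% of all tested genes called), total counts (0.0689%), a filter at 1 CPM in 2 or more libraries (0.802%), limma-voom with library weights (0.0551%), a replicate block (0.31%), or without curcumol replicate 1, 2 or 3 (0.00715%, 0% and 0.138%). A fit of abundant genes only, which called 4.06% of its genes, tested 5 of the 9, not Timp3, and called 0 of them. All 9 passed the filter on low counts, Timp3 through its curcumol libraries. For Timp2 and Timp3, 2 of the 9, every curcumol library lay above both untreated ones, against 36.6% of all tested genes, and for 0 of the 9 every one lay below, against 9.31% (45.9% in either direction). Positions of libraries, here and below, are in CPM without the TMM factors that the fold changes use. These factors were 1.02 to 1.07 with curcumol and 0.911 and 0.939 without, so positions can change with the scaling. The median log2 fold change was -0.04 over the 9 genes and 0.15 over all tested genes.

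**Figure D1:**
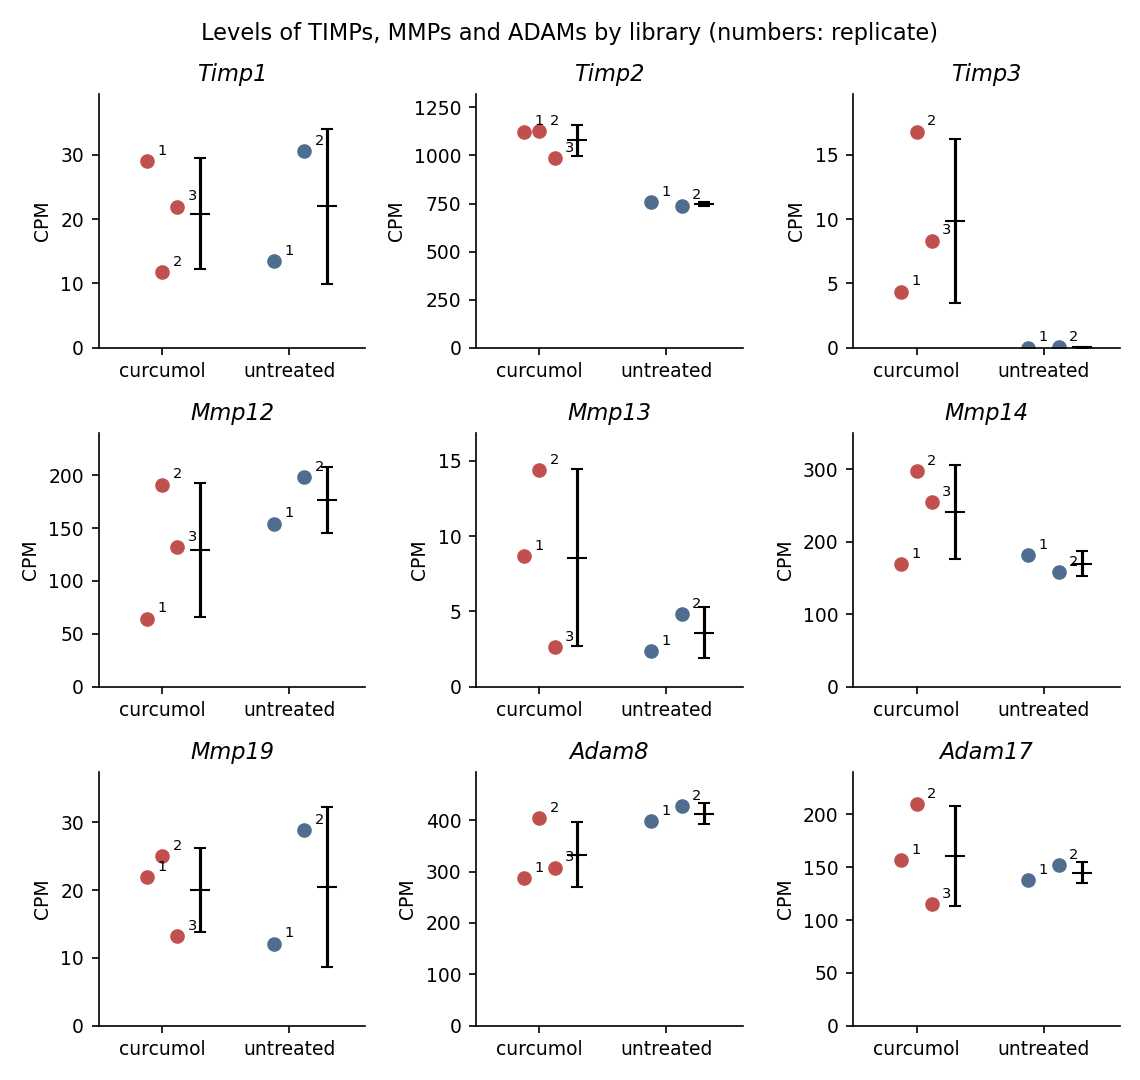
Level of each of the 9 genes in CPM (linear axes from 0) in the 3 curcumol and 2 untreated libraries; numbers beside points are replicates, and bars show the mean ± SD. Timp2 and Timp3 are the genes whose curcumol points all lie above the untreated points, and curcumol replicate 2 is the highest point for 5 genes.

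Among the inhibitors, Timp3, which binds to the matrix and blocks metalloproteinases as well as Adam17, showed the widest gap. Timp3 (NCBI gene 21859) had 179, 691 and 331 counts in the curcumol libraries, against 0 and 2 counts in the untreated libraries. In CPM these were 4.36, 16.8 and 8.32 with curcumol and 0 and 0.0480 without. Every curcumol library lay above both untreated ones, and within the curcumol libraries the highest was 3.86-fold the lowest. Pooled over each group the rate was 418-fold higher with curcumol, with an exact 95% interval of 116 to 3459 that covers counting error only. The fitted log2 fold change was 8.34 ± 1.41, whose size depends on the prior count of the fit, and its adjusted p was 0.0640 in edgeR. The adjusted p was 5.71e-09 with DESeq2, 0.0250 with limma-voom and 0.0234 without a filter on low counts, where 2.03% of all tested genes passed. It was 0.210 with a replicate block and 0.0954 to 0.106 without 1 curcumol library. Without untreated replicate 1 or 2 it was 0.00219 or 0.000659, where 18.7% or 22.5% of all tested genes passed and the remaining untreated library is assumed to vary like the curcumol ones.

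Of 3382 tested genes whose curcumol mean was within 2-fold of that of Timp3, 66 (1.95%) had at most 2 counts over both untreated libraries, and 36.5% had curcumol libraries all above the untreated ones. Fibroblast markers summed to 140, 177 and 393 CPM in the curcumol libraries and to 35.6 and 31.3 CPM in the untreated libraries, with Pdgfra, Lum, Fap and Mfap5 at 0 in both untreated libraries. Of these 12 markers 2, Dcn and Lum, were called higher and 0 lower in edgeR, against 0.0689% and 0.138% of all tested genes. Lum passed the low-count filter through the curcumol libraries, which fixes its direction. For Col1a2, Postn, Thy1, Tcf21 and Loxl1 the groups overlapped. Timp3 and the endothelial sum given next were highest in curcumol replicate 2. The fibroblast, mural and cardiomyocyte sums were highest in curcumol replicate 3. An order of 3 libraries cannot decide the source of Timp3. Endothelial markers summed to 30.9, 46.9 and 36.4 CPM with curcumol and to 4.25 and 4.78 CPM without, and 6 of 10 (Cdh5, Tek, Tie1, Egfl7, Cldn5 and Robo4) were at 0 in both untreated libraries. None of the 10 was called in edgeR, 7 were higher at an unadjusted p under 0.05 (18.1% of all tested genes), and DESeq2 called 8 higher (12.5%). The 6 at 0 in untreated libraries passed the low-count filter through the curcumol libraries. Mural markers, of pericytes and smooth muscle, summed to 20.9, 33.3 and 38 CPM with curcumol, against 31.2 and 14.3 CPM without. Among them Rgs5, a pericyte gene, stood at 8.28, 15.3 and 11.2 CPM with curcumol and at 0 in both untreated libraries. It was the 1 of 5 tested mural markers that was called higher, against 0.0689% of all tested genes. Rgs5 passed the low-count filter through the curcumol libraries, which fixes its direction. Pdgfrb and Kcnj8 were also at 0 in both untreated libraries, while Acta2 and Cspg4 had log2 fold changes of -0.58 and -1.90 with overlap between the groups. Cardiomyocyte markers summed to 90.6 to 114 CPM with curcumol and to 17.6 and 55.8 CPM without, with Ttn and Ryr2 at 0 in both untreated libraries. For Actc1 and Nppa the groups overlapped. Of 8 tested cardiomyocyte markers 0 were called in edgeR and 3 were higher at an unadjusted p under 0.05 (18.1% of all tested genes). DESeq2 called 3 higher (12.5%). The part of all these cell types and of the number of genes detected in the difference was not tested.

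**Figure D2:**
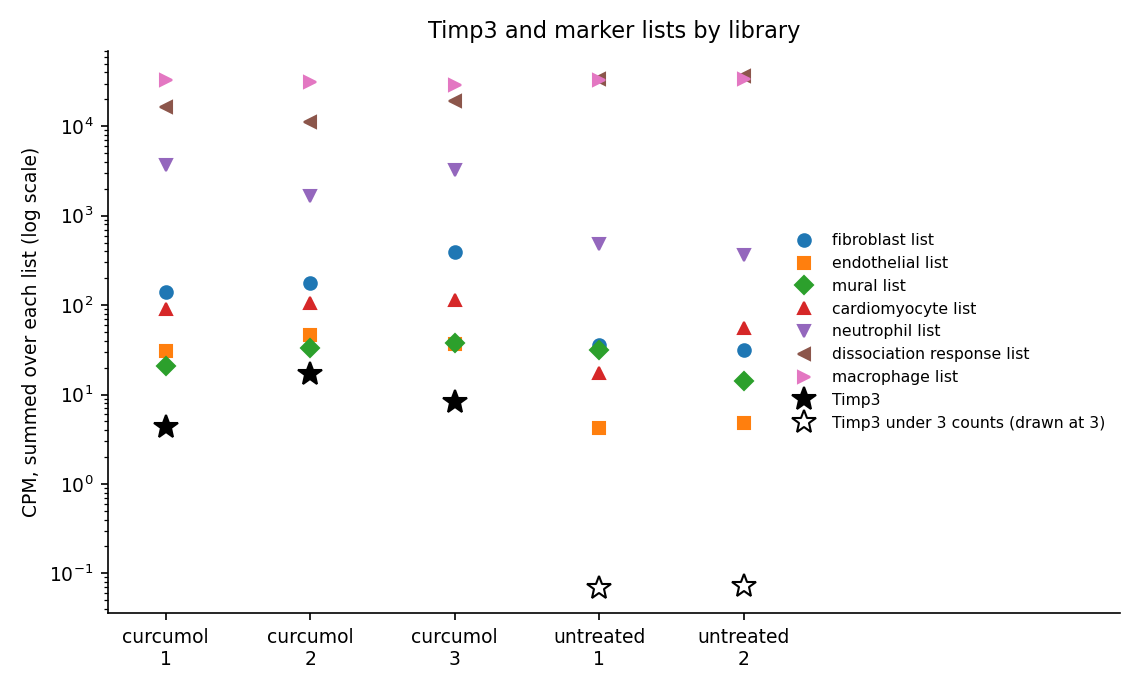
Timp3 (stars) and the summed CPM of 7 gene lists (other symbols) in each library on a log axis, curcumol libraries on the left; open stars are libraries under 3 Timp3 counts, drawn at the level of 3 counts. Timp3 and the endothelial, fibroblast, cardiomyocyte and neutrophil sums lie higher in all 3 curcumol libraries, the macrophage sum, mostly Lyz2, overlaps between the groups, and the dissociation response sum lies lower with curcumol.

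Timp2, the most abundant inhibitor, which also helps Mmp14 to activate pro-Mmp2, had 1124, 1127 and 987 CPM in the curcumol libraries and 756 and 740 CPM in the untreated libraries (NCBI gene 21858). The groups did not overlap, and replicates lay close together, with the highest 1.14-fold the lowest with curcumol and 1.02-fold without. Group means were 1079 ± 80.1 CPM with curcumol and 748 ± 11.3 CPM without (SD, n = 3 and 2), a 1.44-fold ratio. With TMM scaling the log2 fold change was smaller, 0.34 ± 0.16 with a 95% interval from -0.03 to 0.72, and did not pass (adjusted p = 0.240 in edgeR). With total counts as the scaling, which moved the median of all tested genes to 0.34, the value was 0.53 (adjusted p = 0.0766). Its adjusted p ranged from 0.0766 to 0.455 over 14 alternatives.

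Timp1, a soluble inhibitor that inflamed and scarring tissue is known to induce, stood at 29.0, 11.7 and 22.0 CPM in the curcumol libraries and at 13.4 and 30.6 CPM in the untreated libraries. The curcumol libraries spanned nearly the same range as the untreated ones. Its log2 fold change of -0.24 ± 0.51 had a 95% interval from -1.47 to 0.98 (adjusted p = 0.833 in edgeR). The sign turned without curcumol replicate 2 (0.05) or untreated replicate 2 (0.46).

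Of the secreted metalloproteinases, Mmp12, the macrophage elastase, stood at 64.4, 191 and 132 CPM in the curcumol libraries and at 154 and 198 CPM in the untreated libraries (NCBI gene 17381). Curcumol replicates 1 and 3 lay below both untreated libraries and replicate 2 between them. The log2 fold change was -0.65 ± 0.40 (95% interval -1.62 to 0.32, adjusted p = 0.390 in edgeR), and it was -0.33 without curcumol replicate 1 and -1.02 without replicate 2. Mmp13, an interstitial collagenase that cuts fibrillar collagen, stood at 8.64, 14.4 and 2.64 CPM with curcumol and at 2.38 and 4.80 CPM without. Curcumol replicate 3 fell within the untreated range and the other 2 lay above it. The log2 fold change was 1.07 ± 0.83 (95% interval -0.93 to 3.08, adjusted p = 0.50 in edgeR), the widest interval among the metalloproteinases, and ranged from 0.50 without curcumol replicate 2 to 1.66 without untreated replicate 2. In the RefSeq order of chromosome 9 these are the outermost genes at one end of a row of 10 metalloproteinase genes, next to each other, and their count ratio, Mmp12 over Mmp13, was 7.45, 13.3 and 50.0 in the curcumol libraries and 64.9 and 41.3 in the untreated libraries. The ratio in curcumol replicate 3 thus lay between the untreated values, with the other 2 curcumol libraries below them.

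Mmp14, the membrane-anchored collagenase that also activates pro-Mmp2, stood at 170, 297 and 255 CPM in the curcumol libraries and at 182 and 158 CPM in the untreated libraries. Curcumol replicate 1 lay between the untreated libraries and the other 2 lay above. The log2 fold change was 0.31 ± 0.24 (95% interval -0.28 to 0.90, adjusted p = 0.513 in edgeR). Mmp19, a secreted enzyme that cuts basement membrane proteins, stood at 21.9, 25 and 13.2 CPM with curcumol and at 12.1 and 28.9 CPM without, so that all curcumol libraries lay between the untreated ones. Its log2 fold change of -0.21 ± 0.46 (95% interval -1.32 to 0.90, adjusted p = 0.847) turned sign without curcumol replicate 3 (0.03), without untreated replicate 2 (0.54) or with a replicate block (0.15).

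Adam8, a membrane protease of leukocytes, was the member with the second smallest p. It stood at 287, 404 and 308 CPM in the curcumol libraries and at 398 and 427 CPM in the untreated libraries (NCBI gene 11501). In CPM, before TMM scaling, curcumol replicates 1 and 3 lay below both untreated libraries, and replicate 2 lay between them. Group means were 333 ± 62.8 CPM with curcumol and 413 ± 21 CPM without (SD, n = 3 and 2), and the log2 fold change was -0.50 ± 0.18 with a 95% interval from -0.94 to -0.06 before adjustment (adjusted p = 0.152 in edgeR). It stayed below 0 in all 14 alternatives, from -0.65 without curcumol replicate 2 to -0.31 with total counts as the scaling, with adjusted p from 0.0784 to 0.478. Adam17, the sheddase that frees tumour necrosis factor from the cell surface, stood at 156, 210 and 115 CPM with curcumol and at 138 and 152 CPM without. The curcumol libraries lay on both sides of the untreated ones. Its log2 fold change of -0.04 ± 0.26 had a 95% interval from -0.67 to 0.59 (adjusted p = 0.953), and was above 0 with total counts (0.15), with a replicate block (0.15), among abundant genes (0.053), and without curcumol replicate 3 (0.16) or untreated replicate 2 (0.03).

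**Figure D3:**
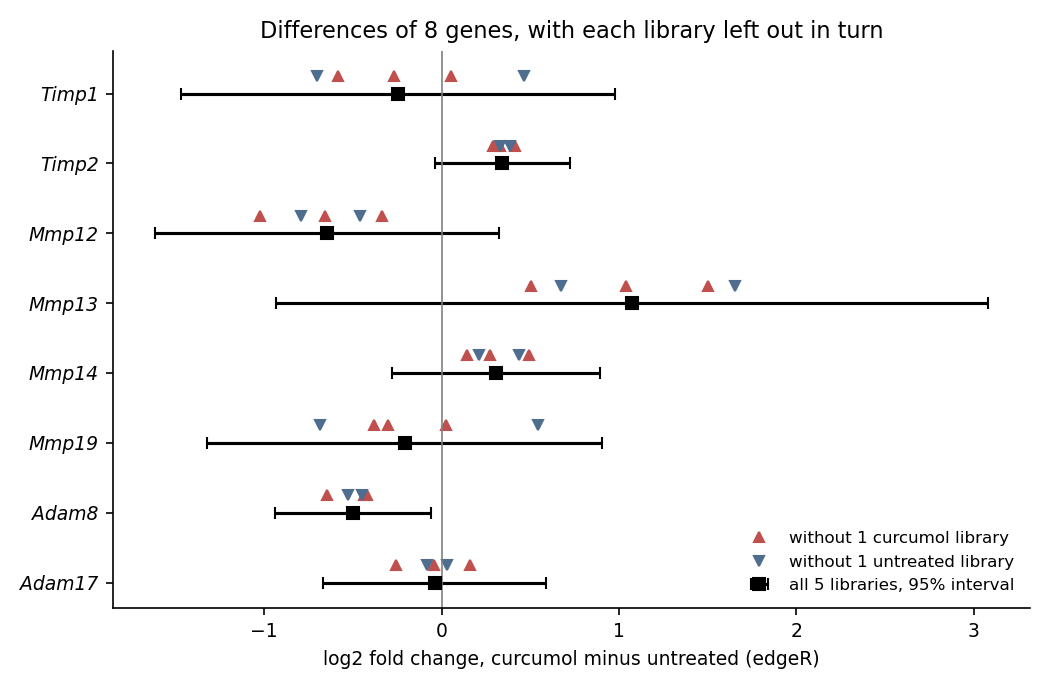
Log2 fold change, curcumol minus untreated, of 8 genes (Timp3, at 8.34, is left off the scale): squares with bars are edgeR estimates from all 5 libraries with 95% intervals before adjustment, and triangles are fits without 1 library. Timp1, Mmp19 and Adam17 have triangles on both sides of 0, while those of Timp2, Mmp12, Mmp13, Mmp14 and Adam8 stay on one side.

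Curcumol replicate 2 had the highest level of all 5 libraries for 5 of the 9 genes (Mmp13, Mmp14, Adam17, Timp2 and Timp3) and the lowest for Timp1. Untreated replicate 2 had the highest for the other 4 (Mmp12, Mmp19, Adam8 and Timp1). The spread between curcumol libraries was smallest for Timp2 and largest for Mmp13, whose highest library was 5.45-fold the lowest. In the untreated pair the highest was 2.38-fold the lowest for Mmp19, 2.28-fold for Timp1 and 2.02-fold for Mmp13, but 1.07-fold for Adam8 and 1.10-fold for Adam17.

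Per length (CPM per kilobase of the longest coding transcript in GENCODE M21), Timp2 was the highest of the 9 in both groups, at 291 ± 21.6 with curcumol and 202 ± 3.04 without (SD, n = 3 and 2, as below), above 98.6% of 17506 genes with a length in curcumol and 97.8% in untreated samples. Adam8 came next at 107 ± 20.1 with curcumol and 132 ± 6.72 without, and Mmp14 followed at 74.3 ± 20.1 with curcumol and 52.4 ± 5.21 without. Libraries of a group did not overlap at these steps. With curcumol, however, the lowest Adam8 library, at 91.97, was hardly above the highest Mmp14 library, at 91.82. Libraries of Mmp14 and Mmp12 overlapped in both groups. Adam17 and Mmp12 stood at 35.9 ± 10.6 and 35.8 ± 17.6 per kilobase with curcumol, where their libraries overlapped each other and those of Timp1 overlapped those of Mmp12. Without curcumol Mmp12, at 48.9 ± 8.65, was above Adam17, at 32.4 ± 2.22, without overlap. Mmp19, Mmp13 and Timp3 were the lowest 3 in both groups. With curcumol their libraries overlapped in part, at 5.89 ± 1.80, 3.20 ± 2.20 and 2.08 ± 1.35 per kilobase, and without it they did not, with 0.00508 per kilobase for Timp3 (0 and 0.0102 in the 2 libraries).

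The transcripts of the 3 inhibitors of the set outweighed those of its 4 metalloproteinases in every library. Mmp8 and Mmp9 were outside these sums. Both were highest in curcumol replicate 1, at 126 and 285 CPM, so the ratios below hold for the summed genes only. Protein was not measured here. Summed per kilobase, Timp1, Timp2 and Timp3 came to 337, 321 and 293 with curcumol and 219 and 234 without, and the sum was higher in all 3 curcumol libraries. The 4 metalloproteinases summed to 79.9, 158 and 120 with curcumol and 103 and 114 without, with the curcumol libraries on both sides. The ratio of the sums was 4.21, 2.04 and 2.44 in the curcumol libraries and 2.12 and 2.05 in the untreated libraries. On the log2 scale it averaged 1.46 ± 0.55 with curcumol and 1.06 ± 0.03 without (SD, n = 3 and 2), a difference of 0.40 that was smaller than the spread between curcumol libraries and that was 0.09 without curcumol replicate 1. Timp2 made up 85.2% to 94.8% of the inhibitor sum in the 5 libraries, and Timp3 at most 1.11%. Mmp14 gave 65.6%, 58.3% and 65.5% of the metalloproteinase sum with curcumol, against 54.3% and 42.8% without, and Mmp12 gave 22.3%, 33.6% and 30.4% with curcumol, against 41.4% and 48.2% without. For both shares the groups did not overlap.

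**Figure D4:**
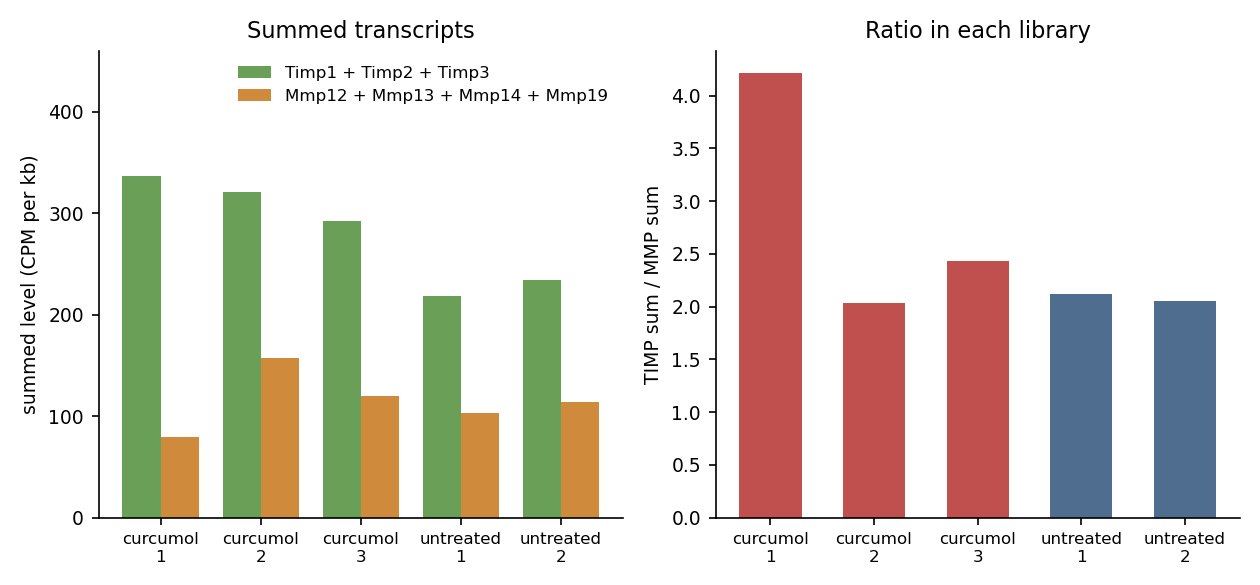
Summed level of 3 TIMPs and 4 metalloproteinases in CPM per kilobase (left) and the ratio of the sums (right) in each library, both axes from 0, curcumol libraries left of untreated ones. The TIMP bar is the taller in every library, and the ratio stands at 4.21 in curcumol replicate 1 and between 2.04 and 2.44 in the other 4.

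Some genes lie within or across others, and counts do not state the use of strand, so their reads cannot be told apart with certainty. In RefSeq, Timp1 and Timp3 overlap the synapsin genes Syn1 and Syn3, Timp2 overlaps Cep295nl, Adam17 overlaps Iah1, Mmp19 overlaps Tmem198b and Adam8 overlaps Gm16201. Syn3 had 35, 8 and 13 counts with curcumol and 5 and 0 without, fewer than Timp3 in each curcumol library. Syn1 had 139, 157 and 49 counts with curcumol and 20 and 180 without, and like Timp1 it was higher in untreated replicate 2 than in replicate 1. Tmem198b had 570 to 623 counts with curcumol and 536 and 702 without, a like size to the Mmp19 counts of 524 to 1029 with curcumol and 524 and 1202 without.

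The wider system was read from 7 lists, of other metalloproteinases, other ADAMs, ADAMTS proteases, other inhibitors, activators and clearance factors, Adam17 partners and Adam17 substrates. Of their 88 genes 65 were tested and none passed in edgeR in either direction. At an unadjusted p under 0.05, 27 were higher and 7 lower, against 18.1% and 6.51% of all tested genes. DESeq2, which tested 71 of them, called 24 higher and 5 lower, against 12.5% and 4.37%. The median log2 fold change was 0.76 over the 65, against 0.15 over all tested genes, but 16 of the 65 had no count in either untreated library, as had 10.9% of all tested genes. Such genes passed the filter through the curcumol libraries, which fixes their direction, and they make up 15 of the 27 that were higher. Over the 49 with an untreated count the median was 0.36, against 0.03 over all tested genes with one. Some of the 49 also needed curcumol libraries to pass, such as Adam33, with 12 and 6 untreated counts, and Lag3, with 27 and 0. The comparison of these medians is therefore not free of the filter.

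Of the other metalloproteinases 10 of 17 were tested. Mmp3, Mmp11 and Mmp15 had the smallest p and no count in either untreated library. Mmp3, stromelysin 1, reached 3.19, 2.68 and 1.96 CPM with curcumol (adjusted p = 0.0644), 74.1-fold higher if 3 counts are set for the untreated group. The exact 95% lower limit of its pooled ratio, which covers counting error only, was 59.9-fold. Mmp11 and Mmp15 were at most at 1.29 CPM. Mmp8, the neutrophil collagenase, stood at 126, 56.4 and 83.9 CPM with curcumol and 34.2 and 26.9 CPM without (log2 fold change 1.36 ± 0.38, adjusted p = 0.0861). Mmp9, a gelatinase, stood at 285, 136 and 154 CPM with curcumol, against 204 and 57.3 CPM without, with overlap (adjusted p = 0.778). Beside them, the 12 neutrophil markers, which include both, summed to 3729, 1676 and 3264 CPM with curcumol and 488 and 363 CPM without. Of these markers 2, Camp and Ngp, were called higher in edgeR, against 0.0689% of all tested genes. Ly6g and Camp were at 0 in both untreated libraries, and Ngp had 4 and 2 counts there. All of these passed the low-count filter through the curcumol libraries. The order of the curcumol libraries was the same for Mmp8 and Mmp9, with replicate 1 highest and replicate 2 lowest. The part of neutrophils in these values was not tested.

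In the ADAM family the 9 tested genes beyond the set all had a positive log2 fold change, against 8282 of all 14508 tested genes. None passed in edgeR, 8 were higher at an unadjusted p under 0.05 (18.1% of all tested genes), and DESeq2 called 6 of 10 higher (12.5%). Of the 9, 4 had no untreated count and passed the filter through the curcumol libraries. Adam33, with 12 and 6 untreated counts, needed curcumol libraries to pass as well. Adam33 stood at 14.0, 12.4 and 8.88 CPM with curcumol and 0.277 and 0.144 CPM without (log2 fold change 5.60 ± 0.73, adjusted p = 0.0523), and was itself the median of the list. The median was 2.85 when the 4 genes without an untreated count are given 3 counts over the untreated group. Adam19, a sheddase of neuregulins, stood at 16.4, 27.0 and 19.4 CPM with curcumol and 6.97 and 5.88 CPM without (log2 fold change 1.51 ± 0.37, adjusted p = 0.0741), and Adam22 at 1.18 to 3.26 CPM with curcumol and 0 in both untreated libraries (adjusted p = 0.0651). Among ADAMTS proteases, which cut proteoglycans and procollagens, 9 of 19 were tested and Adamts5, Adamts1 and Adamts15, at 0 in both untreated libraries, had at most 1.87 CPM with curcumol.

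Of the other inhibitors, Timp4, the TIMP best known from heart muscle, stood at 1.87, 5.98 and 3.75 CPM with curcumol and had no count in either untreated library (adjusted p = 0.0644). It was 110-fold higher if 3 counts are set for the untreated group, with an exact 95% lower limit, for counting error only, of 88.8-fold. Like Timp3 it was highest in curcumol replicate 2 and lowest in replicate 1. Serpinb2, an inhibitor of plasminogen activators, stood at 5.43, 5.93 and 2.89 CPM with curcumol and at 8.15 and 22.7 CPM without (adjusted p = 0.113), and Slpi, which blocks neutrophil elastase, at 147, 58.6 and 95.3 CPM with curcumol and 141 and 206 CPM without (adjusted p = 0.198). Plasmin is one activator of pro-metalloproteinases. Its activator urokinase, Plau, stood at 3.87, 1.29 and 2.79 CPM with curcumol and 22.4 and 20.3 CPM without (log2 fold change -3.19 ± 0.55, adjusted p = 0.0644), and the urokinase receptor Plaur at 206, 149 and 174 CPM with curcumol and 435 and 536 CPM without (-1.64 ± 0.20, adjusted p = 0.0523). The tissue-type activator Plat stood at 1.78 to 3.33 CPM with curcumol and had no count without it (adjusted p = 0.0651).

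Adam17 needs an iRhom protein to mature, and of these Rhbdf2, the form of immune cells, stood at 40.6, 53.1 and 34.4 CPM with curcumol and 13.9 and 20.9 CPM without (log2 fold change 1.11 ± 0.30, adjusted p = 0.0815). Rhbdf1 stood at 8.35 to 19.8 CPM with curcumol and at 19.4 and 0.624 CPM without, and Frmd8, which stabilises the complex, at 64.4 to 88.9 CPM with curcumol and 87.2 and 57.0 CPM without. Of the tested substrates of Adam17, 9 of 15 had a positive log2 fold change, a share near that of all tested genes (8282 of 14508). None passed in edgeR, and 4 were higher and 2 lower at an unadjusted p under 0.05, against 18.1% and 6.51% of all tested genes. DESeq2 called 4 of 17 higher and 2 lower, against 12.5% and 4.37%. Tnf stood at 24.5, 21.4 and 60.4 CPM with curcumol and 320 and 372 CPM without (-3.48 ± 0.46, adjusted p = 0.0523), while Adam17 itself differed by -0.04. Icam1, an adhesion molecule, stood at 150, 137 and 133 CPM with curcumol and 198 and 275 CPM without (-0.94 ± 0.19, adjusted p = 0.0651), and Cd163, the haemoglobin scavenger receptor, at 195, 320 and 84.2 CPM with curcumol and 35.6 and 27.8 CPM without (2.46 ± 0.56, adjusted p = 0.0689). The 12 genes of the dissociation response are ones that cell isolation is known to induce. They summed to 16519, 11187 and 19144 CPM with curcumol and 33841 and 36241 CPM without. In edgeR 1 of 12, Hspa1a, was called lower, against 0.138% of all tested genes. At an unadjusted p under 0.05, 9 were lower (6.51% of all tested genes), and DESeq2 called 8 lower (4.37%). All 12 log2 fold changes were below 0, as were 6226 of all 14508. The list includes the AP-1 subunit Fos, at 5422, 3471 and 6286 CPM with curcumol and 11839 and 12827 CPM without (-1.47 ± 0.27, adjusted p = 0.0651). Jun stood at 701, 813 and 984 CPM with curcumol and 813 and 895 CPM without, with overlap (-0.23 ± 0.18, adjusted p = 0.503 in edgeR). Fosb and Junb had log2 fold changes of -1.26 and -0.92. The part of the dissociation response in the values of the proteases was not tested.

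The patterns most like those of the 2 members with the smallest p were sought among tested genes with an average log2 CPM of at least 5, by the root mean square difference of centred log2(CPM + 0.5) over the 5 libraries. Timp3 itself averaged a log2 CPM of 2.49, under this limit, so genes near its own level were not searched. Rgs5, at an average of 2.73 and also at 0 in both untreated libraries, was among those left out. Within the limit, the nearest to Timp3 were Sult1a1, a sulfotransferase, Fkbp5, a co-chaperone of steroid receptors, and the complement gene C4b, at differences of 0.69, 0.72 and 0.77. They are not shown to be its nearest patterns among all genes. For Adam8, whose average was above the limit, the nearest were Sde2, Ddx6 and Fbl, at 0.06, 0.09 and 0.09. Sult1a1 stood at 105, 189 and 86.3 CPM with curcumol and 15.3 and 14.6 CPM without. Fbl, a nucleolar methyltransferase, stood at 29.3, 37.8 and 30.9 CPM with curcumol and 34.5 and 43.8 CPM without.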

How the data were processed

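The authors deposited raw read counts per gene for 5 libraries in 1 table. The submitters' processing notes name HISAT2, HTSeq, fastp and Bowtie2, while versions, build and annotation were not given in the sources used here. The library kit is named differently in the sample labels and in the series' design text, so strandedness is not settled. Columns were tied to samples by title. Chi-square per gene between replicates was at least 76.8, so no 2 libraries agreed within sampling noise.

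The 9 members and all lists were chosen with earlier results of these data known. Groups were compared with edgeR 4.0.16 under R 4.3.3: TMM factors of 0.911 to 1.07, filterByExpr with a minimum count of 10, a quasi-likelihood fit with 3 residual degrees of freedom, two-sided tests, 0.05 as threshold. The common dispersion had a square root of 0.610. SEs derive from the F statistic. With 3 and 2 samples an exact permutation test reaches 0.1 at the lowest, so none is given. A count of 3 equals 0.0693 to 0.0754 CPM. CPM and levels per kilobase were computed from the counts, with GENCODE M21 lengths matched by name for 17506 genes, and promoter sequence is RefSeq's for GRCm38.p6. Named genes are all members, the 3 with the smallest p of each related list, and Mmp8 and Mmp9. For 2 members the 3 nearest patterns, sought among genes at an average log2 CPM of 5 or more, are named as well. Marker genes and Fos are named beside results they moved with, chosen after their values were seen. Others of the same lists are named beside them. Alternatives were DESeq2 1.42.0, RLE factors, total counts, other filters, limma-voom (limma 3.58.1) without and with library weights, a replicate block and leaving out each library, and, added after seeing the data, a fit restricted to abundant genes, at an average log2 CPM of 5 or more.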

Additional observations from a re-analysis of the deposited data

How the results depend on the processing

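Signs of Timp2, Timp3, Mmp12, Mmp13, Mmp14 and Adam8 held in each alternative that tested them. Adam17 turned positive with total counts (0.15), a replicate block (0.15) or abundant genes only (0.053), and Mmp19 with the block (0.15). Leaving out 1 library gave -0.26 to 0.16 for Adam17, -0.69 to 0.54 for Mmp19 and -0.70 to 0.46 for Timp1. Of the 9 genes, 1 (Timp3) was called with DESeq2, without a low-count filter, with limma-voom, or without either untreated replicate; leaving out 1 library gave 0 to 1. All genes called numbered 30 in edgeR, and 2653 with DESeq2, 10 with total counts, 416 without a filter, 98 at a CPM of at least 1, 1661 with limma-voom, 8 with library weights, 179 among abundant genes and 0 to 3531 with 1 library left out (0 without curcumol replicate 2, with 1791 higher and 592 lower at an unadjusted p under 0.05, and 2950 and 3531 without untreated replicates 1 and 2). In the related lists 0 were called, and 29 with DESeq2, 10 without a filter, 3 at a CPM of at least 1, 17 with limma-voom, 1 with the block, 4 among abundant genes and 0 to 27 with 1 library left out. The cause was not tested. The log2 ratio of TIMP to metalloproteinase sums differed by 0.40, by 0.47 without division by length, and by 0.09 to 0.62 with 1 library left out.

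Replicate numbers were shared by the groups, and deviations of same-numbered libraries from their group means correlated at 0.04 and -0.01. The deviations of the 2 untreated libraries mirror each other, so these values cannot decide whether same-numbered libraries shared a batch. The replicate block called 45 genes in all. Genes below about 10 counts per library, Timp3 in untreated samples among them, are limited by depth.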
